A study of Homo sapiens with 7 samples.

Results

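The 10 genes described here encode enzymes that build purine and pyrimidine nucleotides from small precursors: PPAT, PAICS, GART, ADSL, ATIC, IMPDH2, CAD, UMPS, CTPS1 and NME1. They were chosen with earlier results of these data known, and each symbol matched 1 of the 60662 gene rows in the deposited tables. The study sequenced total RNA from PF382 and MOLT-14, 2 established human lines of T-cell acute lymphoblastic leukaemia (T-ALL). Their STAG2 gene, which encodes a component of cohesin, the ring-shaped complex that tethers sister chromatids and shapes DNA loops, was altered. The PF382 groups were 2 libraries of untreated wild-type cells and 3 libraries of cells in which STAG2 was knocked out by delivering Cas9 and guide RNA as a ribonucleoprotein. The MOLT-14 groups were 1 library of cells transduced with an empty vector and 1 of cells transduced with STAG2. All cells were grown in the same serum-containing medium with no drug. The labels do not say whether a knockout library is a clone or a pool, which promoter drove the transduced STAG2, or whether the libraries of a group are separate cultures. The PF382 titles carry a separate identifier for each library and do not say what it stands for. The spread that the p values measure is thus that of the libraries and may be partly technical. Within knockout the gene TK1 differed widely (30.0, 0.196 and 14.0 CPM), and the source of that spread was not tested.

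Cells make purines by assembling a ring on a ribose phosphate carrier until inosine monophosphate (IMP) is formed, which is then converted to adenine or guanine nucleotides. Pyrimidines are made the other way round: the ring is formed first as orotate, attached to the ribose carrier to give UMP, and converted further to UTP and CTP. Dividing lymphoid blasts draw heavily on these routes for RNA and DNA synthesis, and antimetabolites such as mercaptopurine and methotrexate, which act on them, are part of standard T-ALL treatment.

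The targeted gene was read first as a check of the labels. STAG2 stood at 334 and 567 CPM (read counts relative to the library's size, scaled by the trimmed mean of M values, TMM) in wild-type PF382 and at 256, 180 and 195 CPM in the knockout libraries. It fell in knockout (log2 change -1.13 ± 0.26 SE, adjusted p 0.0218), but did not pass when knockout 2 (adjusted p 0.0757) or knockout 3 (0.0773) was left out. Its change was -0.67 without wild type 2. In MOLT-14 it stood at 1.15 CPM with the empty vector and 137 CPM with STAG2. Libraries held 32609485 to 93970572 counts, with each knockout library deeper than each wild-type library, and small RNA genes took 20.97% and 14.9% of the wild-type counts against 11.96% to 13.98% of the knockout counts. Of 10 T-lineage markers 9 had at least 1 CPM in every library, and CD2 was the exception. Summed myeloid markers were 10.3 and 20.2 CPM in wild type and 0.532 to 1.41 CPM in knockout, mostly ITGAM, while LYZ, MPO, CD14 and CSF1R were under 1 CPM in every library. Summed stromal and epithelial markers were 28.6 and 11.9 CPM in wild type and 7.92 to 10.4 CPM in knockout, mostly KRT18, with COL1A2 at 0 counts in every library. Summed B-lineage markers were 38.0 and 7.06 CPM in wild type and 3.95 to 19.3 CPM in knockout, nearly all from CD79A. These are bulk libraries, in which fewer cells expressing a gene and less RNA per cell cannot be told apart. The part of depth, small RNA and these markers in the results below was not tested, apart from the fit on protein-coding genes given next.

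In PF382, 8 of the 10 enzymes rose in STAG2 knockout, none fell, and PPAT and IMPDH2 did not pass. Among all 17442 genes tested 30.4% were called and 15.8% were called higher (two-sided quasi-likelihood test of edgeR, p adjusted over all genes by Benjamini-Hochberg and under 0.05). The median log2 change of the 10 enzymes was 0.97, against -0.02 over all genes tested. Scaling by the upper quartile moved the median of all genes to -0.18 and gave 1824 genes higher and 3566 lower in place of 2763 and 2548. Under it 8 enzymes were again called higher and their median was 0.81. Fitted on protein-coding genes only, which leaves small RNA out of the totals, the count was also 8 and the median 0.88. All knockout libraries lay above both wild-type libraries for 9 of the 10 enzymes, as they did for 31.8% of all genes tested. GART, ADSL, CAD, CTPS1 and NME1, 5 of the 10, were called with a rise of at least 2-fold, as were 5.33% of all genes tested.

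**Figure D1:**
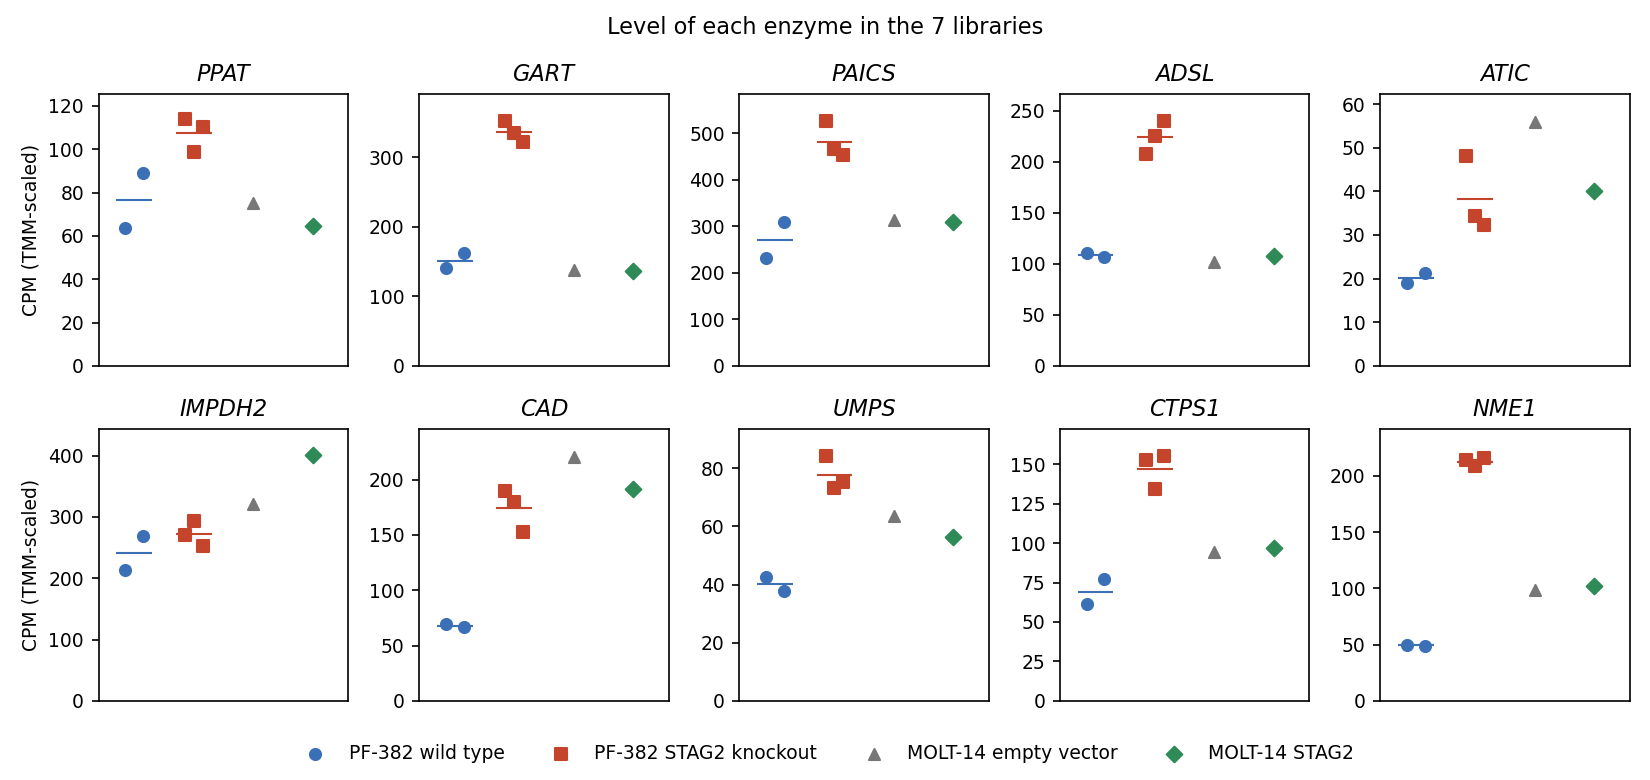
TMM-scaled CPM (vertical axes, each starting at 0) of the 10 enzymes in each of the 7 libraries; horizontal bars are means of the 2 wild-type and 3 knockout PF382 libraries. The knockout points lie above the wild-type points in every panel except IMPDH2, and the NME1 panel has the widest gap relative to its spread (49.0 and 49.6 CPM against 209 to 216 CPM).

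The purine ring is started by PPAT, amidophosphoribosyltransferase, the committed step of the route. PPAT (ENSG00000128059.8, GRCh38 chromosome 4, 56393362 to 56435615, minus strand) stood at 63.6 and 89.2 CPM in wild type and 114, 98.8 and 110 CPM in knockout. The groups did not overlap, but the wild-type libraries lay further apart than the knockout libraries. The wild-type mean was 76.4 ± 18.1 CPM (SD, n = 2) and the knockout mean 108 ± 7.89 CPM (SD, n = 3). This is a difference of 0.47 ± 0.17 (SE) in log2 that did not pass (edgeR adjusted p 0.0806). Leaving out wild type 2 made PPAT pass (0.76 in log2, adjusted p 0.00791), as it did in DESeq2 (0.0427) and with no filter on low counts (0.0376). Over all alternatives its adjusted p ran from 0.00791 to 0.202.

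PAICS, a bifunctional enzyme of the middle steps of ring assembly, is transcribed from a start next to that of PPAT on the opposite strand. PAICS (ENSG00000128050.8, chromosome 4, 56435741 to 56464579, plus strand) stood at 232 and 309 CPM in wild type and 528, 465 and 454 CPM in knockout. Every knockout library was above both wild-type libraries. The log2 change was 0.80 ± 0.17 (SE, adjusted p 0.0170), or 1.75-fold. PAICS did not pass in the fits that omitted knockout 1 (0.0609), knockout 2 (0.0602) or knockout 3 (0.0544). PPAT and PAICS had fractional counts in all 7 libraries, so that reads were divided between each of them and other genes. The ratio of PAICS to PPAT per length (TPM over TPM) was 4.71 and 4.77 in wild type, 5.75, 5.85 and 5.23 in knockout, and 4.93 and 5.27 in MOLT-14. All 3 knockout ratios were above both wild-type ratios.

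The DNA that separates the starts of this pair is shown because both genes start at its ends. GENCODE 29 places 125 bases between them, chr4:56435616-56435740, printed from the plus strand of the RefSeq promoter table (GRCh38.p14), with the hexamer GGCGGG in capitals.
PPAT-PAICS interval: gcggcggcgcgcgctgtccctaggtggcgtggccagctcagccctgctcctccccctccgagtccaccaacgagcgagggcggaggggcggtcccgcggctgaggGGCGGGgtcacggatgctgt
It is 76.0% G or C and holds no CACGTG. It has 1 match to GGCGGG or its reverse complement CCCGCC, a match also found in 34.1% of the upstream stretches of 125 bases of all genes in that table. Other hexamers of G and C, such as GGGCGG, were not marked or counted.

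The E-box CACGTG, a palindrome that reads the same on both strands and is bound by basic helix-loop-helix factors, was searched in RefSeq promoter windows (250 bases before a start to 50 after). Windows were matched for 8 enzymes (CAD, UMPS, CTPS1, ATIC, GART, PPAT, PAICS and NME1), and 4 of their 13 windows held a match, as did 7.26% of all 35116 windows. Windows of PPAT and PAICS overlap and hold the same match. The matches are shown with the motif in capitals, and positions count the first base of the motif from the RefSeq start.
PPAT, chr4:56435782-56435807, minus strand, position -182 (41 for PAICS): cggagatttcCACGTGcagcaaatac
ATIC, chr2:215312003-215312028, plus strand, position -46: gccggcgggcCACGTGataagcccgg
ATIC, chr2:215312078-215312103, plus strand, position 30: cctacctgcgCACGTGgtgccgccgc
NME1, chr17:51153583-51153608, plus strand, position 35: tgctgcgaacCACGTGggtcccgggc
Of the genes with a match PAICS, ATIC and NME1 passed in PF382 and PPAT did not. GART, CAD, UMPS and CTPS1, whose windows held no match, all passed, and a relation was not tested. A match describes letters and no binding was measured.

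GART, a trifunctional protein that catalyses early and middle steps of purine ring assembly, more than doubled. GART (ENSG00000159131.17, chromosome 21, 33503931 to 33543491) stood at 140 and 163 CPM in wild type and 352, 334 and 321 CPM in knockout. Its lowest knockout library was far above its highest wild-type library. The log2 change was 1.12 ± 0.13 (SE, 2.18-fold, adjusted p 0.00379), and it passed in all 5 fits that left out 1 library.

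ADSL, adenylosuccinate lyase, acts both in ring assembly and in the step from IMP to AMP. ADSL (ENSG00000239900.12, chromosome 22, 40346500 to 40390463) stood at 110 and 107 CPM in wild type and 208, 225 and 240 CPM in knockout. The wild-type libraries agreed closely, and the knockout libraries were all higher. It rose 2.03-fold (log2 change 1.02 ± 0.12 SE, adjusted p 0.00379) and passed in all 5 fits that left out 1 library. ADSL counts were fractional in 6 of the 7 libraries, so it too shares reads with other genes.

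ATIC is the bifunctional enzyme that closes the ring and releases IMP. ATIC (ENSG00000138363.15, chromosome 2, 215311817 to 215349773) stood at 19.1 and 21.3 CPM in wild type and 48.1, 34.3 and 32.3 CPM in knockout. Knockout 1 was clearly above the other knockout libraries, and all 3 were above wild type. It rose 1.86-fold (log2 change 0.89 ± 0.21 SE, adjusted p 0.0219), with the call lost without knockout 2 (log2 change 0.96, adjusted p 0.0505).

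IMPDH2, the inosine monophosphate dehydrogenase that commits IMP to guanine nucleotides and is the target of mycophenolic acid, was the enzyme with the smallest change. IMPDH2 (ENSG00000178035.12, chromosome 3, 49024325 to 49029408) stood at 213 and 269 CPM in wild type and 270, 293 and 253 CPM in knockout. Knockout 3 lay below wild type 2, so the groups overlapped. Its log2 change was 0.15 ± 0.15 (SE, adjusted p 0.483), and it was -0.013 with upper-quartile scaling (adjusted p 0.952) and 0.36 without wild type 2 (adjusted p 0.0724). Of the 6 purine enzymes, therefore, GART, PAICS, ADSL and ATIC passed while the enzymes at the entry and at the guanine branch did not. No test of a difference between these enzymes was run.

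The 3 enzymes of the pyrimidine route all rose. CAD fuses carbamoyl-phosphate synthetase, aspartate transcarbamylase and dihydroorotase, the opening reactions, in a single protein. CAD (ENSG00000084774.14, chromosome 2, 27217390 to 27243943) stood at 69.1 and 66.9 CPM in wild type and 190, 180 and 153 CPM in knockout. The wild-type libraries agreed closely and every knockout library was more than double them. Its rise was 2.51-fold (log2 change 1.33 ± 0.14 SE, adjusted p 0.00304), with log2 changes of 1.25 to 1.40 when 1 library was left out.

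UMPS joins orotate to the ribose carrier and decarboxylates the product to UMP. UMPS (ENSG00000114491.14, chromosome 3, 124730366 to 124749273) stood at 42.7 and 37.8 CPM in wild type and 84.4, 73.2 and 75.1 CPM in knockout. Both groups were tight and did not overlap. The log2 change was 0.92 ± 0.13 (SE, 1.89-fold, adjusted p 0.00540), and UMPS passed in all 5 fits that left out 1 library.

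CTPS1, CTP synthetase, aminates UTP to CTP and is the form known to be needed for lymphocyte proliferation. CTPS1 (ENSG00000171793.16, chromosome 1, 40979335 to 41012565) stood at 61.3 and 77.4 CPM in wild type and 152, 134 and 155 CPM in knockout. The groups were well separated. It rose 2.08-fold (log2 change 1.06 ± 0.15 SE, adjusted p 0.00581), and left-out libraries moved the log2 change between 0.91 and 1.26.

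NME1, a nucleoside diphosphate kinase that charges nucleoside diphosphates to triphosphates, had the largest rise of the 10 by the deposited counts, but not with the reads of its neighbours added. NME1 (ENSG00000239672.7, chromosome 17, 51153536 to 51162428) stood at 49.6 and 49.0 CPM in wild type and 214, 209 and 216 CPM in knockout. Both groups were the tightest of the list, with means of 49.3 ± 0.451 CPM (SD, n = 2) and 213 ± 3.65 CPM (SD, n = 3). The log2 change was 2.08 ± 0.11 (SE, 4.23-fold, adjusted p 0.00218).

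The NME1 value rests on how reads were divided with its neighbours. NME2, a paralogous kinase, lies just downstream (chromosome 17, 51165435 to 51171747), and the annotated readthrough gene NME1-NME2 spans both. All 3 had fractional counts. NME1 took 27.3% and 23.4% of the reads assigned to the 3 genes in wild type, 48.7%, 45.9% and 51.7% in knockout, and 36.1% and 34.7% in MOLT-14. NME2 stood at 119 and 144 CPM in wild type and 203, 221 and 174 CPM in knockout, a log2 change of 0.57 ± 0.16 (SE, adjusted p 0.0372). That call was lost without wild type 1 (adjusted p 0.0688), without any of the knockout libraries (0.0610 to 0.128), with upper-quartile scaling (0.0765), with a minimum of 1 CPM in 2 libraries (0.0516) and on protein-coding genes only (0.0577). The readthrough gene rose by 0.79 in log2, from 14.2 to 25.2 CPM (adjusted p 0.0162, lost without knockout 2 or 3 at 0.0613 and 0.0717). With the 3 genes summed to 1 feature the log2 change was 1.13 (adjusted p 0.00372), so the locus rose as a whole. That is below the change of CAD in the same fit (1.33). The log2 change of NME1 by itself was 1.84 times that of the summed locus.

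**Figure D2:**
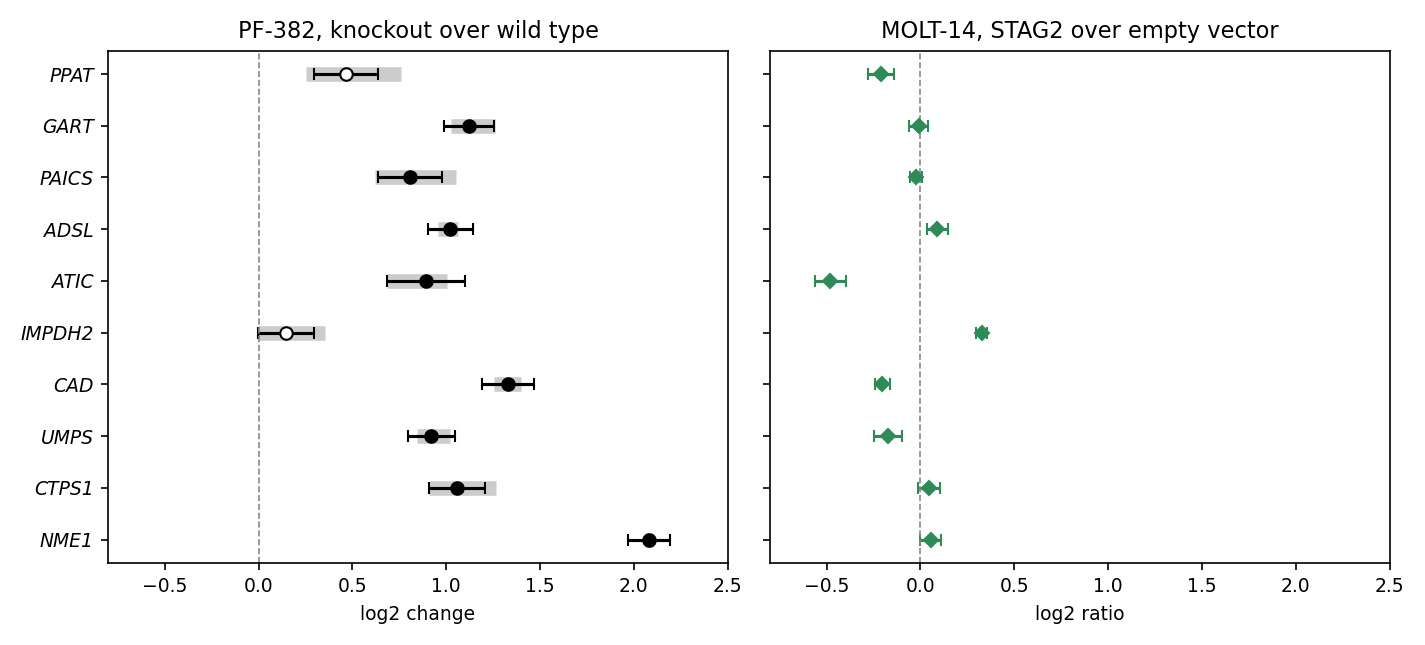
Left, log2 change of each enzyme in PF382 knockout over wild type with its standard error, filled where the adjusted p is under 0.05, and grey bars spanning the 5 fits that each left out 1 library. Right, log2 ratio of STAG2 over empty vector in MOLT-14 (1 library each) with exact binomial 95% intervals for counting error only; the PF382 changes run from 0.15 to 2.08 and the MOLT-14 ratios from -0.48 to 0.33.

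Levels of different genes were compared per length, in deposited TPM within each library. TPM of a gene were not compared between libraries. In MOLT-14 the 10 enzymes summed to 868 TPM with the empty vector and 621 TPM with STAG2, but to 1480 and 1506 CPM. IMPDH2 was the highest of the 10 in both wild-type libraries (61.0 and 101 TPM) and in both MOLT-14 libraries (250 with the empty vector and 211 with STAG2). In the knockout libraries NME1 was the highest, at 141, 119 and 118 TPM, with IMPDH2 next at 111, 106 and 88.2 TPM. NME1 was the fifth of the 10 in both wild-type libraries, at 22.7 and 29.6 TPM. Its place rests on the reads assigned to it, which were 27.3% and 23.4% of those of its locus in wild type and 45.9% to 51.7% in knockout. PAICS, ADSL and GART came next in knockout, at 71.7 to 100.3, 85.1 to 90.6 and 64.2 to 83.8 TPM. Within each of the 7 libraries PAICS and ADSL were both above GART. PAICS was above ADSL in knockout 1 (100.3 and 90.6 TPM) but below it in knockout 2 (77.6 and 85.7 TPM) and knockout 3 (71.7 and 85.1 TPM). At the low end the ranges of CAD (13.4 to 19.6 TPM), UMPS (13.7 to 19.4) and PPAT (13.3 to 17.4) overlapped in knockout, and their order differed between libraries. The highest enzyme exceeded the lowest 12.5-fold and 13.7-fold in wild type, 8.11-fold to 8.99-fold in knockout, and 8.86-fold and 11.5-fold in MOLT-14.

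**Figure D3:**
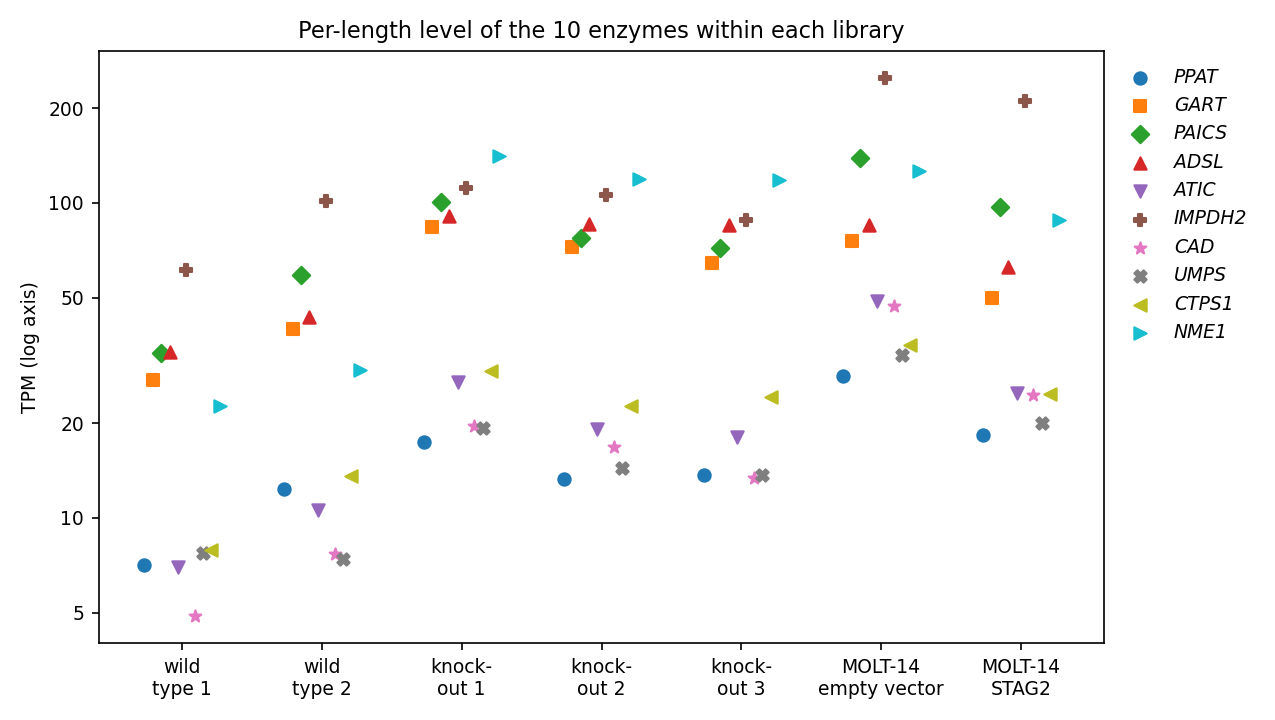
Deposited TPM (log axis) of the 10 enzymes within each of the 7 libraries; levels are comparable between genes within a library. By the reads assigned to it, NME1 moves from the middle of the order in wild type (22.7 and 29.6 TPM) to the top in knockout (118 to 141 TPM). IMPDH2 leads in wild type and in MOLT-14. TPM of a gene are not compared between libraries.

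In MOLT-14 no enzyme moved past 1.5-fold between the STAG2 and the empty-vector library, as 6.97% of 11115 genes did (those reaching 5 CPM in at least 1 of the pair). There is 1 library in each group, so no test was made and the intervals cover counting error only. ATIC was the furthest down, at 56.0 CPM with the empty vector and 40.1 CPM with STAG2, a ratio of 0.717 (95% interval 0.676 to 0.760). IMPDH2 was the furthest up, at 321 and 402 CPM, a ratio of 1.25 (1.23 to 1.28). PPAT (ratio 0.864, 0.824 to 0.906), CAD (0.868, 0.845 to 0.893) and UMPS (0.887, 0.843 to 0.934) were also lower with STAG2. CAD, for instance, read 220 CPM with the empty vector and 191 CPM with STAG2. ADSL was higher with STAG2 (101 and 108 CPM, ratio 1.06, 1.02 to 1.11). For GART (137 and 136 CPM), PAICS (314 and 308), CTPS1 (94.3 and 97.2) and NME1 (98.4 and 102) the interval of the ratio included 1. The median log2 ratio of the 10 was -0.02, beside 0.03 for all genes of at least 5 CPM.

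Those directions depend on scaling. With library totals in place of TMM the median of all these genes moved to -0.14, ADSL, CTPS1 and NME1 turned to log2 ratios of -0.09, -0.13 and -0.12, and ATIC, at -0.66, passed 1.5-fold. With library totals IMPDH2 was the only one of the 10 above 0 (0.15). Small RNA made up 4.87% of counts in the empty-vector library and 9.27% in the STAG2 library, and their part in the ratios was not tested.

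Between the lines, 4 of the 10 enzymes were higher in MOLT-14 than in wild-type PF382 and none was lower, beside 22.1% higher and 20.4% lower of the 17702 genes tested (42.5% called in all). The 2 MOLT-14 libraries were taken as samples of 1 line, so their spread includes any effect of STAG2, and the wild-type libraries are those of the knockout comparison. CAD was 3.02-fold higher (206 ± 20.5 CPM in MOLT-14 and 68.0 ± 1.56 CPM in wild type, SD, n = 2 each, log2 difference 1.59, edgeR adjusted p 0.00152). ATIC was 2.37-fold higher (48.0 ± 11.2 CPM against 20.2 ± 1.61 CPM, edgeR adjusted p 0.00571), a call lost without the empty-vector library (0.0541). NME1 was 2.03-fold higher by its assigned reads (100.3 ± 2.67 CPM against 49.3 ± 0.451 CPM, edgeR adjusted p 0.00483). Of the genes that share its reads, NME2 did not pass (log2 difference 0.42, edgeR adjusted p 0.153). The readthrough gene was lower in MOLT-14 (-1.26, edgeR adjusted p 0.0102). The 3 genes together read 272 and 294 CPM in MOLT-14 and 182 and 209 CPM in wild type, and no fit of their sum was run between the lines. UMPS was 1.49-fold higher (60.0 ± 5.09 CPM against 40.2 ± 3.47 CPM, edgeR adjusted p 0.0440), but not without either MOLT-14 library (0.279 and 0.158), without wild type 2 (0.0610) or with no filter on low counts (0.0630). GART, ADSL, PPAT and PAICS differed by less than 0.20 on the log2 scale and did not pass (adjusted p 0.560 to 0.824). CTPS1 (0.46, adjusted p 0.106) and IMPDH2 (0.58, adjusted p 0.115) did not pass either, though CTPS1 did without wild type 2 (0.65, 0.0289).

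Set against the knockout libraries instead, MOLT-14 was lower for 7 of the 10 enzymes and higher for IMPDH2, where 32.0% of genes tested were lower and 36.0% higher. This comparison uses the same MOLT-14 libraries as the one above. GART was lowest in relation to knockout (log2 difference -1.25 ± 0.11 SE, edgeR adjusted p 4.9e-05), followed by ADSL (-1.06) and NME1 (-1.04). PAICS (-0.59), PPAT (-0.58), CTPS1 (-0.58) and UMPS (-0.32) were lower as well. In a fit of all 7 libraries with STAG2 state as a term only CAD and ATIC were called, both higher in MOLT-14, beside 47.6% of genes tested. That fit codes knockout and empty vector alike and assumes the same change with STAG2 state in both lines. The median log2 change of the 10 enzymes was 0.97 in PF382 knockout and -0.02 in MOLT-14 with STAG2. For NME1 the SE was 0.42 in that fit, beside 0.18 against wild type and 0.095 against knockout. CAD and ATIC, the enzymes furthest above wild-type PF382 in MOLT-14, were 0.28 and 0.38 above knockout and did not pass (adjusted p 0.0861 and 0.142). By its assigned reads NME1 thus ordered as wild-type PF382, MOLT-14 and knockout PF382 with no overlap between the 3. It stood at 49.0 to 49.6, 98.4 to 102 and 209 to 216 CPM. NME1, NME2 and the readthrough gene together had the same order, at 182 to 209, 272 to 294 and 418 to 454 CPM. For GART both MOLT-14 libraries lay below both wild-type libraries, and for ADSL they overlapped with them.

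**Figure D4:**
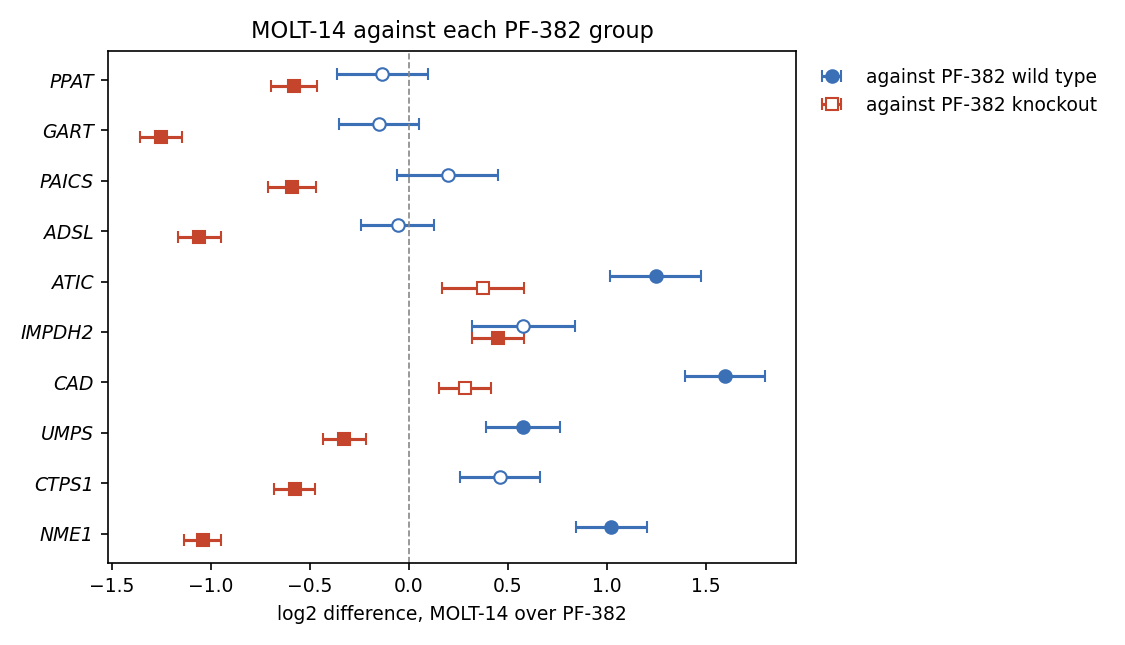
Log2 difference (horizontal axis) of each enzyme in MOLT-14, both libraries, over PF382 wild type (circles) and over PF382 knockout (squares), with standard errors and filled symbols where the adjusted p is under 0.05. Circles are filled for CAD, ATIC, NME1 and UMPS (0.58 to 1.59) and open for the others, of which IMPDH2, CTPS1 and PAICS also lie above 0, and squares lie below 0 for 7 of the 10 enzymes (-1.25 to -0.32).

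Calls in the other genes of nucleotide metabolism went in both directions in PF382. These lists and the 10 enzymes were chosen with earlier results of these data known, so a comparison of them is description only. Over 6 lists of 63 tested genes 21 rose and 5 fell in knockout, beside the 15.8% and 14.6% of all genes. The 26 calls became 16, 17 and 13 without knockout 1, 2 and 3. A further 10 listed genes were too low to be tested in PF382.

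Of the remaining enzymes of the de novo routes 4 of 10 tested rose and none fell (median log2 change 0.33). PFAS, which catalyses the step between those of GART, rose from 29.1 and 19.8 CPM in wild type to 84.5, 83.3 and 73.6 CPM in knockout (log2 change 1.69 ± 0.19 SE, adjusted p 0.00351). DHODH, the mitochondrial dehydrogenase that makes orotate, rose by 0.92 in log2, from 9.13 and 6.44 CPM to 14.3, 15.5 and 15.1 CPM (adjusted p 0.0181). It did not pass when any knockout library was omitted (0.0560 to 0.0734). ADSS2, which makes adenylosuccinate from IMP and is listed under its older symbol ADSS, rose by 0.62 in log2, from 46.7 to 73.5 CPM (adjusted p 0.0112, lost without knockout 3 at 0.0520). GMPS, the last enzyme of GMP synthesis, stood at 156 and 196 CPM in wild type and 215, 190 and 205 CPM in knockout and did not pass (log2 change 0.18, adjusted p 0.368). IMPDH2 and GMPS, the enzymes from IMP to GMP, thus both overlapped between the groups, as did IMPDH1, the paralogue of IMPDH2.

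The paralogues of CTPS1 and IMPDH2 were low in PF382. CTPS2 had 0 counts in all 5 PF382 libraries, where 3 counts make 0.0347 to 0.0971 CPM, and 29.1 and 31.7 CPM in MOLT-14, at least 299.9-fold higher against that floor per library. CTPS1 was the CTP synthetase with detected RNA in PF382. Genes next to CTPS2 on chromosome X were present there, with SYAP1 at 36.8 and 39.9 CPM and RBBP7 at 139 and 254 CPM in wild type. IMPDH1 stood at 10.4 and 2.17 CPM in wild type and 9.25, 15.2 and 10.1 CPM in knockout (log2 change 0.85, adjusted p 0.319, but 2.39 and 0.00544 without wild type 1). ADSS1, the muscle form, was at 1.29 CPM in wild type and 0.522 CPM in knockout (adjusted p 0.148, and 0.0366 without knockout 2).

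**Figure D5:**
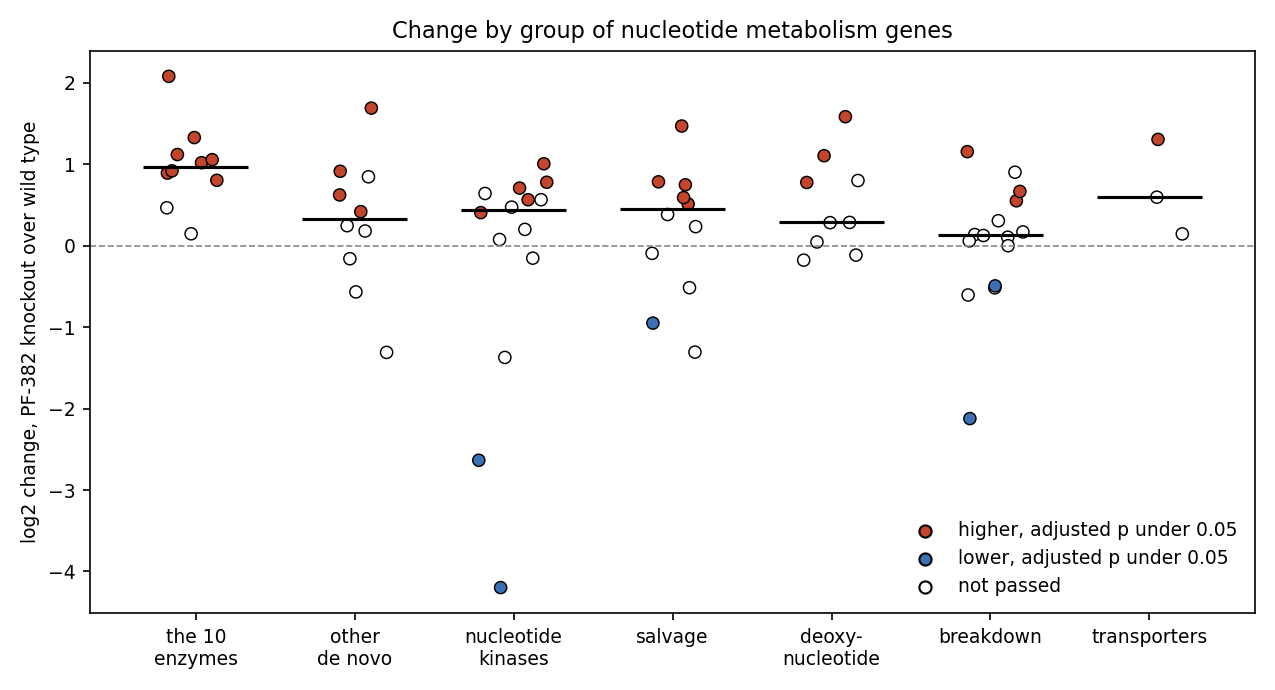
Log2 change in PF382 knockout over wild type for each tested gene of the 10 enzymes and of 6 other lists of nucleotide metabolism genes, with list medians as bars. The 10 enzymes, chosen with earlier results known, have a median of 0.97, beside 0.13 to 0.60 for the other lists. TK1, which had 0 counts in both wild-type libraries, is counted in its list's median and lies above the plotted range.

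Salvage enzymes, which recycle bases and nucleosides, had 5 of 12 higher and 1 lower (median 0.45), beside 15.8% and 14.6% of all genes. APRT, which salvages adenine, rose from 34.3 to 96.8 CPM (2.77-fold, adjusted p 0.00269) and ADK, adenosine kinase, from 23.3 to 41.0 CPM (1.72-fold, adjusted p 0.00686). TK2, mitochondrial thymidine kinase, fell (log2 change -0.95, adjusted p 0.00920), with means of 17.7 CPM in wild type and 9.35 CPM in knockout. Among 9 genes of deoxynucleotide supply 3 rose and none fell (median 0.29). They include DCTPP1, a dCTP pyrophosphatase (29.1 to 89.0 CPM, adjusted p 0.00218), and DCTD, dCMP deaminase (33.8 to 59.0 CPM, adjusted p 0.00535).

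Of 14 nucleotide kinases 5 were called higher and 2 lower, beside 15.8% higher and 14.6% lower of all genes tested. AK4, a mitochondrial adenylate kinase, fell from 140 and 83.4 CPM to 7.48, 5.32 and 5.84 CPM (log2 change -4.20 ± 0.26 SE, adjusted p 0.00218). AK1, the cytosolic adenylate kinase, fell from 0.683 to 0.111 CPM (adjusted p 0.00962), and NME7 rose from 9.62 to 19.7 CPM (adjusted p 0.00619). AK1 was under 1 CPM in every PF382 library and some of its counts were fractional. It was not tested in the fit with a minimum of 1 CPM in 2 libraries. Of 15 breakdown genes tested 3 rose and 2 fell (median 0.13), close to those shares of all genes. NT5M, a mitochondrial nucleotidase, fell (log2 change -2.12, adjusted p 0.00218), with means of 43.0 CPM in wild type and 10.1 CPM in knockout. ITPA, which removes inosine triphosphate, rose from 14.0 to 31.9 CPM (adjusted p 0.0132, lost without knockout 3 at 0.0547) and NT5C3B from 35.1 to 56.8 CPM (adjusted p 0.0108, lost without knockout 2 at 0.0534). SLC29A1, the equilibrative nucleoside transporter ENT1, rose from 41.6 to 105 CPM (adjusted p 0.0113), and the other 2 tested transporters, SLC29A2 and SLC29A3, did not pass (adjusted p 0.205 and 0.809). Without wild type 1 SLC29A3 passed at 1.01 in log2 (adjusted p 0.0357), and without wild type 2 it was at -0.36.

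The mean profile of the 10 enzymes over the 7 libraries was compared with that of 6966 protein-coding genes of at least 10 CPM without fractional counts. The nearest were UTP4, a nucleolar ribosome assembly protein (root mean square difference 0.0577 on the log2 scale over 7 libraries), RARS, arginyl-tRNA synthetase (0.0628), EIF3J, a translation initiation factor subunit (0.0629), XPO5, a nuclear export receptor (0.0663), and SHMT1, the cytosolic serine hydroxymethyltransferase of folate metabolism (0.0713). SHMT1, for example, stood at 29.3 and 27.9 CPM in wild type, 59.2, 56.8 and 54.9 CPM in knockout, and 43.3 and 42.4 CPM in MOLT-14. Among the enzymes themselves CTPS1 (0.100) and UMPS (0.109) lay nearest to that mean, and NME1 (0.465) and IMPDH2 (0.443) furthest from it.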

How the data were processed

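Total RNA libraries of PF382 and MOLT-14 were read from 1 table each. Per the submitters' processing notes the tools were STAR and RSEM, with GRCh38 (hg38) as the build; versions, annotation release and strand setting are not given in the sources used here. The authors deposited expected counts, which are estimates without normalisation, with TPM and FPKM beside them, per the file headers. TPM was used for levels between genes and FPKM for a check of that order. The 92 spike-in features were left out. Expected counts were rounded to whole numbers (91.8% to 93.3% were whole already) and tested with edgeR 4.0.16 under R 4.3.3 (TMM scaling, filterByExpr, quasi-likelihood test, two-sided, Benjamini-Hochberg over all genes, threshold 0.05). The PF382 fit held its 5 libraries and the comparison of lines held wild-type PF382 and both MOLT-14 libraries. All p values adjusted for multiple tests are of this kind unless DESeq2 1.42.0 is named. The SE of a log2 change is its size over the root of F. Printed CPM use TMM factors of all 7 libraries, so ratios of CPM can differ slightly from fitted changes. MOLT-14 ratios use a prior count of 2 on the log2 scale, and exact binomial (Clopper-Pearson) intervals at 95% cover counting error only, as do floors of 3 counts, since reads are not independent molecules. Positions came from GENCODE 29 by gene ID without version (10 of 10 matched) and promoter sequences from RefSeq (GRCh38.p14). Fits were tested on simulated data. The enzymes and lists were chosen with earlier results of these data known. Named were every enzyme, STAG2, NME2 and the readthrough gene, the remaining de novo enzymes PFAS, GMPS, DHODH and the paralogues, the 3 smallest adjusted p of each other list (1 of these genes is not reported here), and the 5 nearest profiles; the neighbours of CTPS2 and of TK1, and TK1 itself, were named after their values were seen. Alternatives covered scaling, tool, filter, feature class, summed NME genes and left-out libraries; TMM on the MOLT-14 pair alone was added after seeing the data. Marker lists were T-lineage, B-lineage, myeloid, natural killer, erythroid, and stromal and epithelial; summed natural killer markers were 2.03 to 18.0 CPM and erythroid markers 0.218 to 1.22 CPM over the libraries.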

Additional observations from a re-analysis of the deposited data

Results flagged for a closer look

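With TMM scaling ADSL was higher in PF382 knockout and slightly higher in MOLT-14 with STAG2, and the MOLT-14 direction depended on scaling. It was 1.02 higher on the log2 scale in PF382 knockout than in wild type, with all 3 knockout libraries above both wild-type libraries. In MOLT-14 it was 0.090 higher in the STAG2 library than in the empty-vector library, and the counting interval of that ratio excluded 1. The difference between the lines was not tested, MOLT-14 has 1 library in each group, and with library totals in place of TMM the MOLT-14 value was -0.09.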

How the results depend on the processing

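The count of enzymes called in PF382 stayed between 6 and 9 under the 12 alternatives run, always higher, and GART, ADSL, CAD, UMPS, CTPS1 and NME1 passed in all of them. IMPDH2 turned to -0.013 with upper-quartile scaling, and ran from -0.0045 (without wild type 1) to 0.36 when 1 library was left out. Leaving out 1 library gave 2271 to 6304 called genes in place of 5311, and 13 to 37 calls in the other lists in place of 26. For MOLT-14 against wild-type PF382, 2 to 4 enzymes were called when 1 library was left out. In the fit of all 7 libraries with STAG2 state, which assumes the same change in both lines, 2 enzymes were called, with PAICS at -0.22 and CTPS1 at -0.066. Against knockout 8 were called, the median was -0.58, and PAICS, UMPS, CTPS1 and NME1 turned to -0.59, -0.32, -0.58 and -1.04. ADSL turned to 0.015 with upper-quartile scaling. With 1 library left out ADSL ran from -0.095 to 0.013, PAICS from -0.016 to 0.42 and PPAT from -0.38 to 0.14; a library left alone in its group is assumed to vary like the others. Library totals in MOLT-14 gave 1 enzyme past 1.5-fold in place of 0. The causes were not tested. The order of levels from FPKM was the same as from TPM at its top in all 7 libraries. No paired analysis was possible because the labels give no replicate numbers that pair libraries across groups. The 2 wild-type libraries limit the precision in PF382, and 1 library a group leaves MOLT-14 ratios without a replicate check.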

Other observations

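TK1, the cytosolic thymidine kinase of pyrimidine salvage, separated the libraries in a way that no group does. It had 0 counts in both wild-type PF382 libraries, where 3 counts make 0.0938 and 0.0971 CPM. The knockout libraries held 1834, 17 and 1024 counts, or 30.0, 0.196 and 14.0 CPM, so that knockout 2 was far below knockout 1 and 3. Its adjusted p was 0.0589 in edgeR, 0.0185 without knockout 2 and 0.000535 in DESeq2. MOLT-14 had 112 CPM with the empty vector and 184 CPM with STAG2, at least 1148-fold higher than wild-type PF382 against a floor of 3 counts per library. AFMID starts at chromosome 17, 78187317, on the plus strand, next to the start of TK1 at 78187233 on the minus strand. AFMID was also highest in knockout 1 and 3 within PF382, but its knockout 2 lay below wild type 1. It had 0.0625 and 0 CPM in wild type, 7.42, 0.0578 and 3.02 CPM in knockout, and 27.5 and 30.1 CPM in MOLT-14. BIRC5, further along the chromosome, had 240 and 339 CPM in wild type and 296 to 337 CPM in knockout, and SYNGR2, on the other side of TK1, had 23.8 and 14.5 CPM in wild type and 37.9 to 42.2 CPM in knockout. This pattern was noticed after the values were seen.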
